A study of Mus musculus with 7 samples.

Results

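The 40 genes described here are markers of liver macrophages and mediators of inflammation. They were taken as a fixed list of Ensembl gene IDs with their symbols, and all 40 were among the 33426 IDs on the arrays. Liver RNA came from 7 male wild-type C57BL/6J mice, an inbred strain that becomes obese on fatty food, with 1 array per liver. In the BMJ + DIO group 4 mice received bitter melon juice (BMJ), freeze-dried from the fruit of Momordica charantia, by daily gavage at 200 mg per kg body weight for 40 days. In the DIO (diet-induced obesity) group 3 mice received no juice. All 7 mice ate high-fat chow (60% of calories as fat) between 4 and 16 weeks of age and for the 40 days after that. The labels nevertheless give an age of 16 weeks for every mouse. No gavage is described for the DIO mice, so the juice and the daily handling cannot be told apart, and no lean mice were analysed here.

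Liver macrophages comprise Kupffer cells, which live in the sinusoids and clear particles, dying cells and microbial products from portal blood, and cells that arrive later as monocytes. In obesity, resident Kupffer cells can be lost and replaced by monocyte-derived cells, some of which take on a lipid-associated state. Macrophages sense danger through pattern recognition receptors, signal through the transcription factor NF-kB, and release cytokines and chemokines that call in further leukocytes. The comparison asked whether these genes differed in the livers of obese mice given the juice. Symbols beyond these 40 could not be paired with IDs, so markers of hepatocytes, endothelium, stellate cells, lymphocytes and neutrophils were not analysed here, and nor were the other genes of these pathways.

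Promoter windows for 29 of the 40 genes were matched by symbol in RefSeq (GRCm38.p6), each running from 250 bases before to 50 bases after a gene's start. The windows of 3 genes are shown as examples that hold a searched motif. Vsig4 and C1qb are macrophage markers, Nfkbia is a target and inhibitor of NF-kB, and all were lowest in DIO replicate 3. So were 75.0% of all tested IDs averaging at least 5 on the log2 scale. Lyz2 lay further below its 7-liver median there (-1.77, against -1.28 for Vsig4 and -1.15 for C1qb). It has a window without GAGGAA. A link between the motifs and these values was not tested. Capitals mark the searched motif on either strand, which is GAGGAA (the core bound by PU.1, the master regulator of macrophages) in Vsig4 and C1qb, and GGANNTTCC (an NF-kB motif) in Nfkbia. All 3 genes lie on the minus strand, at chrX:96293389-96293688, chr4:136886151-136886450 and chr12:55492598-55492897, and are written 5′ to 3′.
Vsig4: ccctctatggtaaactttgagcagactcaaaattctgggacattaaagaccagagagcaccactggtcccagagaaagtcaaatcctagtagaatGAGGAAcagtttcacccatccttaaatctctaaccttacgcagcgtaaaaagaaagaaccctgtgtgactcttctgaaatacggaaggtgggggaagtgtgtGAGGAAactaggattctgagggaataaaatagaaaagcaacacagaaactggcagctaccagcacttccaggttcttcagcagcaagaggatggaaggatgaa
C1qb: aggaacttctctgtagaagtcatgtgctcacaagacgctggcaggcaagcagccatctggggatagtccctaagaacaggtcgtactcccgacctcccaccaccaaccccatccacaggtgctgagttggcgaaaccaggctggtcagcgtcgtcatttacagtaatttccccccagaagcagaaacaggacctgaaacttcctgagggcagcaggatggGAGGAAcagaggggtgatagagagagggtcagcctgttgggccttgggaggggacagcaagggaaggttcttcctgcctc
Nfkbia: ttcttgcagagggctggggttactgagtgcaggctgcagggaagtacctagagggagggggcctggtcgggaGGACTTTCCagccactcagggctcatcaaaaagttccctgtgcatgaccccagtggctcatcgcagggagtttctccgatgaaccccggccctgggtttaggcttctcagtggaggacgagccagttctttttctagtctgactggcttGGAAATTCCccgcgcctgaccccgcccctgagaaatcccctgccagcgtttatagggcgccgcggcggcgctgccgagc

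The 29 genes had 32 windows. GAGGAA was present in 13 of the 32, and in 28.3% of all 32851 windows in the table. GGANNTTCC was present in 7 of the 32 (Cxcl10, Icam1, Il6, Lyz2, Nfkbia, Nlrp3 and Tnf), and in 4.26% of all windows. In the member windows 0 matches of the 2 motifs overlapped each other. In Nfkbia the NF-kB matches began 178 and 29 bases before the gene's start, and in Vsig4 the GAGGAA matches began 155 and 53 bases before it. A match describes these letters only and is not evidence of binding.

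No gene of the list differed between the groups beyond the spread between livers once all tests were counted. Of the 40 genes, 34 passed the filter that left out the lowest 40% of IDs by mean log2 value, and 6 did not (Itgam, Itgax, Tnf, Il6, Tlr4 and Nlrp3). At an adjusted p under 0.05 (limma with Benjamini-Hochberg adjustment), 0 of the 34 passed, against 0 of 20055 IDs tested (0%), and their lowest adjusted p was 0.571. At an unadjusted p under 0.05, 1 of the 34 passed, namely Ccl2, which was lower in BMJ + DIO. Over all IDs tested 6.41% passed that mark in either direction, and 2.78% did so with BMJ + DIO below DIO, so 1 gene of 34 is not more than the background. The 2 groups of livers did not overlap for 0 of the 34 genes, against 3.52% of all IDs tested. The median difference, BMJ + DIO minus DIO, was 0.10 over the 34 genes and 0.024 over all IDs tested, on the log2 scale. Over all 40 genes in the fit without a filter it was 0.08, against 0 over all 33426 IDs, with 29 genes higher and 11 lower in BMJ + DIO and Ccl2 again the 1 gene under the unadjusted mark. The 95% intervals ranged from narrow (Icam1, -0.14 to 0.15) to wide (Lyz2, -1.02 to 2.11).

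**Figure D1:**
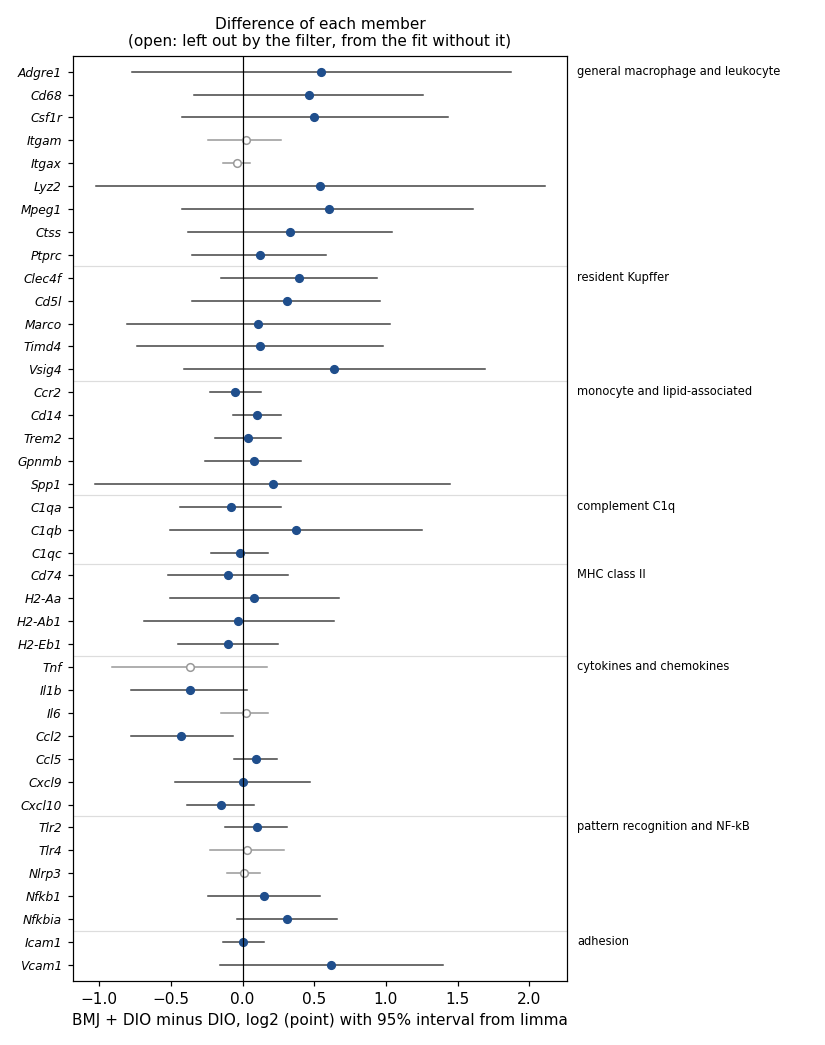
The difference of each of the 40 genes, BMJ + DIO minus DIO, is plotted on the log2 scale (x axis) with its 95% interval from limma, ordered by role from top to bottom. Filled points are the 34 genes tested and open points the 6 left out by the filter, taken from the fit without it. Among the 34, only the interval of Ccl2 (-0.78 to -0.07) excludes 0.

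The array of DIO replicate 3 stood apart, which bears on every result below. Its mean Pearson correlation with the other 6 arrays across the tested IDs was 0.924, while the others lay between 0.964 and 0.969. IDs with high values read low on it: over the 6624 IDs averaging at least 5 on the log2 scale, its median deviation from the 7-array median was -0.47. The part of this array-wide shift in the values of the macrophage genes was not tested. The values also carry exact repeats between arrays. Of the 40 genes, 16 have 7 distinct values and 5 have 4 or fewer.

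General macrophage genes varied more between the DIO livers than between the groups. Mpeg1 (ENSMUSG00000046805, chromosome 19), a pore-forming protein of phagocytes, had log2 values of 6.24, 6.03, 6.12 and 7.02 in BMJ + DIO livers, against 6.44, 5.91 and 4.92 in DIO livers. BMJ + DIO replicate 4 was the highest and DIO replicate 3 the lowest, and the groups overlapped. The difference was 0.60, with a 95% interval of -0.42 to 1.61 (limma, adjusted p = 0.574). Adgre1 (ENSMUSG00000004730, chromosome 17), a surface receptor that defines mouse macrophages, had values of 5.84, 5.76, 6.30 and 6.82 in BMJ + DIO livers, against 6.59, 5.81 and 4.48 in DIO livers. The DIO livers alone spanned 2.12 on the log2 scale, and the difference of 0.55 had an interval of -0.77 to 1.87. Both genes read high in a treated and in an untreated liver and low in a single untreated liver. In bulk liver RNA, fewer cells of a type and less RNA per cell cannot be told apart.

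The other 5 tested general markers were likewise lowest in DIO replicate 3. Lyz2, a lysozyme of myeloid cells, averaged 7.16 ± 0.53 (SD, n = 4) in BMJ + DIO and 6.61 ± 1.30 (SD, n = 3) in DIO. Lyz2 has a near-identical neighbour, Lyz1, and how probes were grouped is not stated, so the 2 may share signal. Csf1r, the receptor for the macrophage growth factor CSF1, averaged 6.76 ± 0.32 in BMJ + DIO and 6.26 ± 0.77 in DIO. Cd68, a lysosomal glycoprotein, averaged 6.12 ± 0.15 and 5.66 ± 0.72 in these groups. For Ctss, a protease that prepares antigen-presenting molecules, the means were 5.04 ± 0.09 in BMJ + DIO and 4.71 ± 0.65 in DIO. Ptprc encodes CD45, carried by all leukocytes, and averaged 3.96 ± 0.08 in BMJ + DIO and 3.84 ± 0.42 in DIO. The integrins Itgam (CD11b) and Itgax (CD11c) lay under the filter, with differences of 0.02 and -0.04 in the fit without it. All 7 tested members of this group averaged higher in BMJ + DIO, by 0.12 to 0.60, and 0 of them passed an unadjusted p of 0.05.

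Resident Kupffer cell markers showed the same picture, and all 5 passed the filter. Vsig4 (ENSMUSG00000044206, chromosome X), a complement receptor on Kupffer cells, had values of 7.78, 7.72, 8.08 and 8.49 in BMJ + DIO livers, against 8.24, 7.39 and 6.50 in DIO livers. DIO replicate 1 lay among the treated livers while DIO replicates 2 and 3 lay below all of them. Its difference of 0.64 was the largest of the 34 genes in size, with a standard error of 0.43 and an interval of -0.41 to 1.69 (limma, adjusted p = 0.571). Clec4f (ENSMUSG00000014542, chromosome 6), a lectin found on mouse Kupffer cells, had values of 6.20, 6.20, 6.23 and 6.51 in BMJ + DIO livers, against 6.34, 5.93 and 5.41 in DIO livers. As for Vsig4, DIO replicate 3 was the lowest liver, and the difference was 0.39 with an interval of -0.15 to 0.94.

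Cd5l, a secreted scavenger protein of resident macrophages, averaged 6.45 ± 0.34 (SD, n = 4) in BMJ + DIO and 6.14 ± 0.45 (SD, n = 3) in DIO. Timd4, which binds phosphatidylserine on dying cells and marks long-lived Kupffer cells, averaged 5.48 ± 0.49 and 5.36 ± 0.53 in these groups. Marco, a scavenger receptor, averaged 4.79 ± 0.66 in BMJ + DIO and 4.69 ± 0.28 in DIO. Marco was the exception in 2 ways: BMJ + DIO replicate 2 (4.08), not DIO replicate 3 (4.38), was the lowest, and the spread was wider in BMJ + DIO. The 5 differences ran from 0.11 to 0.64, all above 0, and 0 of 5 passed an unadjusted p of 0.05.

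**Figure D2:**
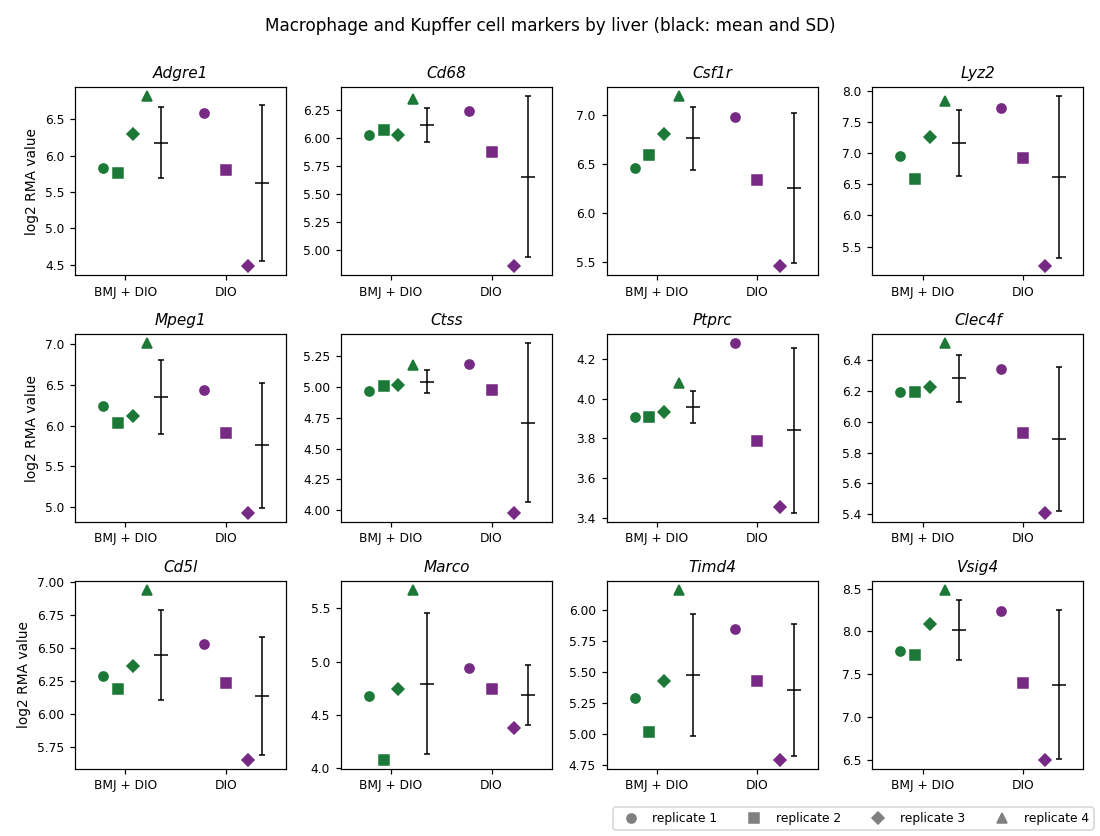
Log2 values (y axis, scaled for each gene) of the 12 tested general macrophage and Kupffer cell markers in the 4 BMJ + DIO livers (left, green) and the 3 DIO livers (right, purple), with symbols for replicate numbers and black bars for mean and SD. DIO replicate 3 is the lowest of 7 for every gene shown except Marco, and the groups overlap in every panel.

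Across these 12 macrophage and Kupffer cell markers, single livers stood at the ends of the range. DIO replicate 3 was the lowest of the 7 livers for 11 of 12, against 42.0% of all IDs tested and 75.0% of those averaging at least 5. BMJ + DIO replicate 4 was the highest for 10 of 12, against 12.3% of all IDs tested and 16.4% of those averaging at least 5. Within the DIO group, replicate 1 was the highest for 12 of 12, against 47.5% of all IDs tested and 78.7% of those averaging at least 5, so most bright IDs shared this order. The median deviation of the 12 genes from the 7-liver median was 0.68 in BMJ + DIO replicate 4 and between -0.07 and 0.03 in the other 3 treated livers. In the DIO group it was 0.34 in replicate 1, -0.09 in replicate 2 and -1.08 in replicate 3. These counts describe the 7 livers, and genes that mark the same cells are not independent of each other.

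**Figure D3:**
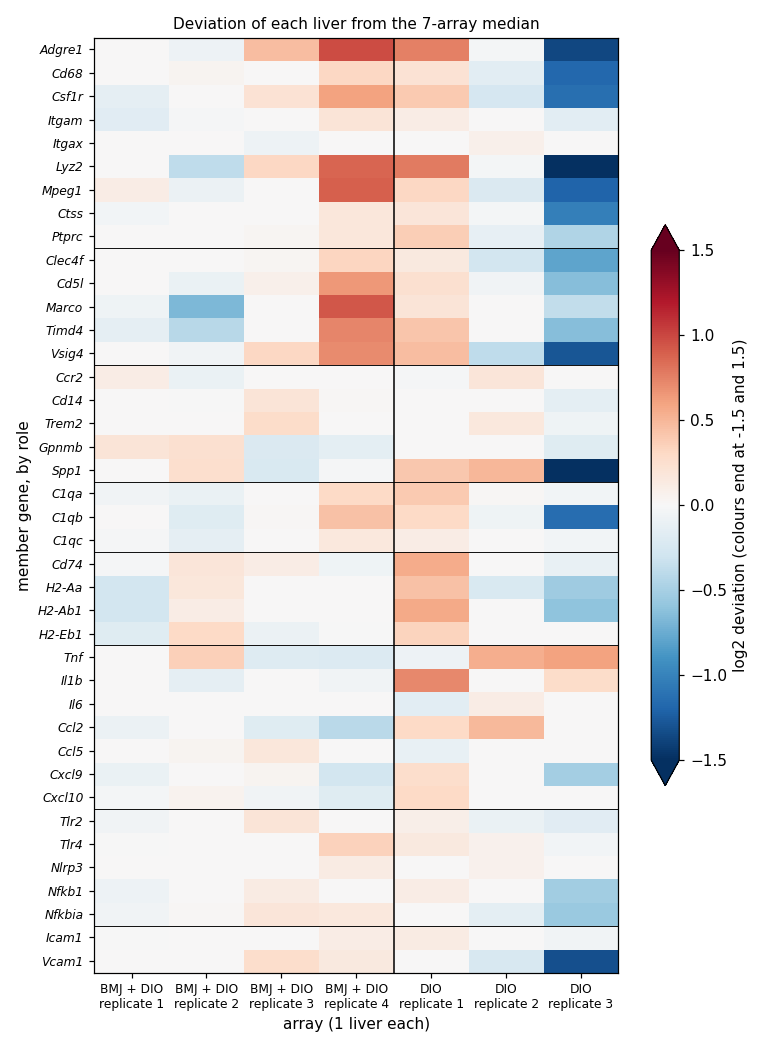
Each cell gives the deviation of a gene (rows, by role) in a liver (columns, BMJ + DIO left and DIO right) from that gene's 7-liver median, in log2 units, with red for higher and blue for lower. The 12 tested macrophage and Kupffer cell rows are mostly red in BMJ + DIO replicate 4 and DIO replicate 1 and blue in DIO replicate 3. In DIO replicate 3 the cytokine and chemokine rows are at or above the median except Cxcl9 (-0.51). Nfkbia (-0.55) and Vcam1 (-1.32) are below it. All cytokine and chemokine rows average under 5. The median deviation of that array was -0.47 over IDs averaging at least 5 and -0.027 over all IDs tested.

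Single DIO livers decided how far these 12 markers appeared to differ. With all 7 arrays 12 of 12 averaged higher in BMJ + DIO, and their median difference was 0.43. Without DIO replicate 3, 6 of 12 averaged higher, and the median difference became 0.02. Without DIO replicate 1 the median was 0.69, and Csf1r, Ptprc, Clec4f and Vsig4 passed an unadjusted p of 0.05, as did 29.0% of all IDs tested in that fit. None of the 4 passed the adjusted mark (limma, adjusted p = 0.165, 0.137, 0.119 and 0.132). Without BMJ + DIO replicate 4, 10 of 12 averaged higher, with a median of 0.32. After cyclic loess, which evens out differences that follow brightness, the median was 0.26 and 11 of 12 averaged higher.

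**Figure D4:**
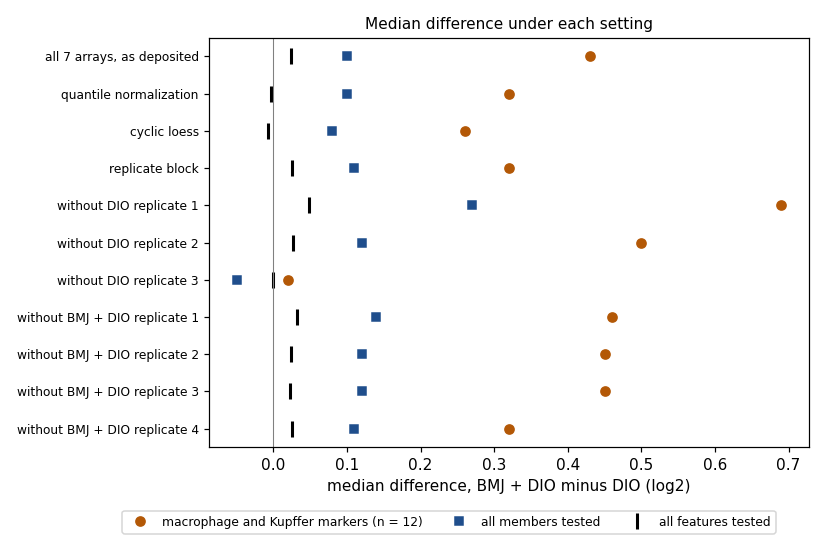
Median difference, BMJ + DIO minus DIO, in log2 units (x axis) for each choice of arrays or normalization (rows), over the 12 macrophage and Kupffer cell markers (circles), the 34 genes tested (squares) and all 20055 IDs tested (bars). The median of the 12 markers moves to 0.02 without DIO replicate 3 and to 0.69 without DIO replicate 1.

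Monocyte and lipid-associated macrophage genes showed small differences, and among them only Spp1 varied widely between the DIO livers. Spp1 (ENSMUSG00000029304, chromosome 5) encodes osteopontin, made by lipid-associated macrophages and also by bile duct cells. It had values of 6.71, 6.96, 6.48 and 6.70 in BMJ + DIO livers, against 7.11, 7.20 and 5.20 in DIO livers. All 4 treated livers lay between the 2 high DIO livers and the low DIO replicate 3, so the sign of the difference rests on that liver. The difference was 0.21 (95% interval -1.03 to 1.45) with all arrays and -0.44 without DIO replicate 3. In the latter fit it passed an unadjusted p of 0.05, as did 3.25% of all IDs tested, but not the adjusted mark (limma, adjusted p = 0.858).

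Cd14, the co-receptor for bacterial lipopolysaccharide, had values of 3.42, 3.42, 3.61 and 3.44 in BMJ + DIO livers, against 3.42, 3.42 and 3.27 in DIO livers. Most livers shared about the same value, and the difference was 0.10 (-0.07 to 0.27). Trem2, a lipid-sensing receptor of lipid-associated macrophages, averaged 4.47 ± 0.14 (SD, n = 4) in BMJ + DIO and 4.43 ± 0.12 (SD, n = 3) in DIO. Gpnmb, a membrane glycoprotein of the same cells, averaged 4.02 ± 0.23 and 3.94 ± 0.10 in these groups. Ccr2, the receptor that brings monocytes into tissue, averaged 2.80 ± 0.09 in BMJ + DIO and 2.85 ± 0.11 in DIO, just above the filter at 2.74. The intervals of Trem2 (-0.19 to 0.27), Gpnmb (-0.26 to 0.41) and Ccr2 (-0.23 to 0.13) hold no difference of 0.5 or more on the log2 scale in either direction. Values of these genes repeat between arrays, with 4, 6 and 5 distinct values in the same order. Whether such repeats make the intervals too narrow was not tested.

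The 3 chains of C1q, the complement starter that macrophages make in the liver, are encoded side by side on chromosome 4. C1qb (ENSMUSG00000036905) had values of 8.28, 8.10, 8.29 and 8.72 in BMJ + DIO livers, against 8.57, 8.22 and 7.13 in DIO livers. It followed the macrophage markers, lowest in DIO replicate 3 and highest in BMJ + DIO replicate 4, with a difference of 0.37 (-0.51 to 1.25). C1qa (ENSMUSG00000036887) had values of 6.08, 6.04, 6.13 and 6.43 in BMJ + DIO livers, against 6.53, 6.15 and 6.10 in DIO livers. Here DIO replicate 3 lay inside the range of the treated livers, and the difference was -0.08 (-0.44 to 0.27). C1qc averaged 5.25 ± 0.12 (SD, n = 4) in BMJ + DIO and 5.27 ± 0.08 (SD, n = 3) in DIO, so the DIO range was 1.44 for C1qb but 0.43 for C1qa and 0.15 for C1qc. Without DIO replicate 1 the C1qa difference turned to 0.05. After quantile normalization and after cyclic loess, C1qa passed an unadjusted p of 0.05 with differences of -0.27 and -0.28, as did 8.82% and 8.98% of all IDs tested, and did not pass the adjusted mark (limma, adjusted p = 0.539 and 0.534).

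MHC class II genes, which present antigen on macrophages, dendritic cells and B cells, were highest in DIO replicate 1 for all 4 members. Cd74 (ENSMUSG00000024610, chromosome 18), the invariant chain, had values of 5.85, 6.05, 5.98 and 5.80 in BMJ + DIO livers, against 6.43, 5.87 and 5.76 in DIO livers. The groups overlapped, with a difference of -0.10 (-0.52 to 0.32). Without DIO replicate 1 the sign turned, to 0.11. Under quantile normalization and cyclic loess, where 8.82% and 8.98% of all IDs tested did so, it too passed an unadjusted p of 0.05, with differences of -0.27 and -0.28 (limma, adjusted p = 0.539 and 0.534).

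H2-Eb1 (ENSMUSG00000060586, chromosome 17), a beta chain, had values of 5.50, 5.98, 5.59 and 5.68 in BMJ + DIO livers, against 6.01, 5.68 and 5.68 in DIO livers. Its difference was -0.10 (-0.45 to 0.25). H2-Aa, an alpha chain, averaged 5.58 ± 0.18 (SD, n = 4) in BMJ + DIO and 5.50 ± 0.50 (SD, n = 3) in DIO. H2-Ab1, its beta partner, averaged 5.41 ± 0.16 and 5.44 ± 0.58 in these groups. Unlike the macrophage markers, these genes were not highest in BMJ + DIO replicate 4, where their median deviation was 0 against 0.50 in DIO replicate 1. Only 16.4% of IDs averaging at least 5 were highest in BMJ + DIO replicate 4.

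Among cytokines and chemokines, Ccl2 and Il1b were the genes whose treated livers all lay at or below the lowest DIO liver, each with a tie. Itgax, left out by the filter, met the same rule, which counts ties, and values often repeat between arrays. The share of all IDs that met this rule was not computed, so these genes cannot be set against a background. Without ties, the groups were apart for 0 of the 34 tested genes, against 3.52% of all IDs tested. Ccl2 (ENSMUSG00000035385, chromosome 11) encodes MCP-1, the chemokine that draws CCR2-bearing monocytes. It had values of 2.78, 2.86, 2.68 and 2.46 in BMJ + DIO livers, against 3.16, 3.34 and 2.86 in DIO livers. The highest treated liver and the lowest DIO liver held the same value, so the groups met without crossing. Ccl2 was 1.34-fold lower in BMJ + DIO, a difference of -0.43 with a standard error of 0.15 (limma, unadjusted p = 0.0258, adjusted p = 0.571). The unadjusted p was over 0.05 without BMJ + DIO replicate 3 or 4, without DIO replicate 1 or 2, and after cyclic loess, with differences between -0.42 and -0.32. Without DIO replicate 3 the difference was -0.56. Ccl2 averaged 2.69 in BMJ + DIO, below the filter's limit of 2.74, and 3.12 in DIO, so it entered the tests through the group in which it was higher. Detection calls were not used here, and its place as the single gene under the unadjusted mark is given as a description. In the fit without a filter the difference was also -0.43 (limma, adjusted p = 0.653).

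Il1b (ENSMUSG00000027398, chromosome 2), the inflammasome product IL-1 beta, had values of 3.32, 3.19, 3.32 and 3.27 in BMJ + DIO livers, against 4.04, 3.32 and 3.59 in DIO livers. The treated livers were nearly equal, and DIO replicate 2 shared their highest value. The difference was -0.37 (-0.78 to 0.03; limma, adjusted p = 0.571). Without DIO replicate 1 it was -0.18, and without DIO replicate 2 it was -0.54. The latter was under an unadjusted p of 0.05, as were 2.74% of all IDs tested, but not the adjusted mark (limma, adjusted p = 0.641). Tnf, the main early inflammatory cytokine, lay under the filter, with values of 2.42, 2.78, 2.23 and 2.22 in BMJ + DIO livers, against 2.35, 2.97 and 3.03 in DIO livers. The groups overlapped, and in the fit without a filter the difference was -0.37 (-0.91 to 0.17). Il6, which drives the acute phase response, was the lowest of the list relative to the filter, at 1.09 in all 4 BMJ + DIO livers, against 0.93, 1.20 and 1.09 in DIO livers.

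Cxcl10 and Cxcl9 are chemokines induced by interferon that attract T cells. Cxcl10 averaged 3.94 ± 0.10 (SD, n = 4) in BMJ + DIO and 4.10 ± 0.17 (SD, n = 3) in DIO, a difference of -0.15 (-0.39 to 0.08). Cxcl9 averaged 4.77 in both groups, with an SD of 0.14 in BMJ + DIO and 0.40 in DIO. Ccl5, a T cell chemokine, averaged 3.87 ± 0.08 in BMJ + DIO and 3.78 ± 0.07 in DIO. Of the 5 tested members, 3 averaged lower and 2 higher in BMJ + DIO, the median being -0.15.

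**Figure D5:**
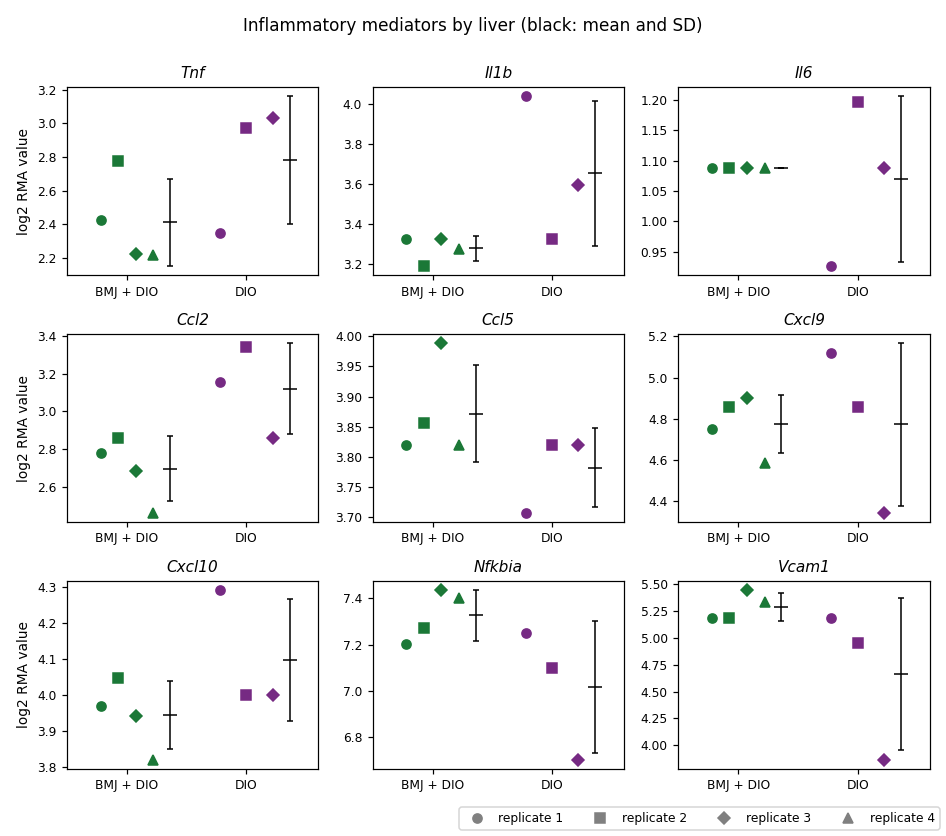
Log2 values (y axis, scaled for each gene) of 7 cytokines and chemokines, Nfkbia and Vcam1 in the 4 BMJ + DIO livers (left, green) and the 3 DIO livers (right, purple), with symbols for replicate numbers and black bars for mean and SD. For Ccl2 and Il1b the highest treated liver equals the lowest DIO liver, and for Nfkbia and Vcam1 the lowest liver is DIO replicate 3.

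Sensors and NF-kB components gave small differences. Nfkbia (ENSMUSG00000021025, chromosome 12) encodes I-kappa-B alpha, which holds NF-kB in the cytoplasm and is itself induced by it. It had values of 7.20, 7.27, 7.44 and 7.40 in BMJ + DIO livers, against 7.25, 7.10 and 6.70 in DIO livers. Only DIO replicate 1 reached into the treated range, and the difference was 0.31 (-0.04 to 0.66; limma, adjusted p = 0.571). It was 0.08 after cyclic loess and 0.15 without DIO replicate 3. Without DIO replicate 1 it was 0.43, under an unadjusted p of 0.05, as were 29.0% of all IDs tested, but not the adjusted mark (limma, adjusted p = 0.131).

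Nfkb1, which encodes the p105 precursor of the p50 subunit, had values of 4.78, 4.85, 4.97 and 4.85 in BMJ + DIO livers, against 4.96, 4.85 and 4.32 in DIO livers. All but DIO replicate 3 lay close together, and the difference was 0.15 (-0.24 to 0.54). Tlr2, a receptor for bacterial lipoproteins, averaged 4.23 ± 0.11 (SD, n = 4) in BMJ + DIO and 4.13 ± 0.13 (SD, n = 3) in DIO. Tlr4, the lipopolysaccharide receptor, and Nlrp3, an inflammasome sensor, lay under the filter. Their means were 2.44 and 2.35 in BMJ + DIO and 2.42 and 2.34 in DIO.

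Leukocytes attach to endothelium through adhesion molecules, of which 2 were measured, and 0 of 2 passed an unadjusted p of 0.05. Vcam1 (ENSMUSG00000027962, chromosome 3) had values of 5.18, 5.18, 5.45 and 5.33 in BMJ + DIO livers, against 5.18, 4.95 and 3.86 in DIO livers. DIO replicate 1 matched the lower treated livers and DIO replicate 3 lay far below the rest, giving a difference of 0.62 (-0.16 to 1.40; limma, adjusted p = 0.571). The difference was 0.22 without DIO replicate 3 and 0.88 without DIO replicate 1. In the latter fit it passed an unadjusted p of 0.05, as did 29.0% of all IDs tested (limma, adjusted p = 0.150). Icam1 (ENSMUSG00000037405, chromosome 9) had values of 5.20, 5.21, 5.21 and 5.32 in BMJ + DIO livers, against 5.33, 5.21 and 5.15 in DIO livers. Its difference was 0 to 2 decimals, with an interval of -0.14 to 0.15, the DIO livers again spreading on either side of the treated ones.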

How the data were processed

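In the authors' deposited table each Ensembl ID has 1 log2 value for each liver. Per the submitters' processing notes these log2 values were made with Affymetrix Power Tools and RMA, and the notes name GRCm38 (mm10). Array type, probe grouping, filters and tool versions were not given in the sources used here. The 40 genes and their 8 role groups were chosen with earlier results of these data known, and symbols came with the list, since the reference table pairs 0 Ensembl IDs with symbols. For that reason the further gene and cell type lists planned could not be used.

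Values were tested as deposited with limma 3.58.1 in R 4.3.3 (lmFit and eBayes, group as sole term, two-sided), after the lowest 40% of IDs by mean over 7 arrays (13371 IDs, mean under 2.74) were left out. P-values were adjusted over all 20055 IDs left. Intervals are 95% intervals of that fit. The test was also run on simulated data with independent normal noise. Those data held no repeated values and no array-wide shift, so the run cannot show how the test behaves with them. All 40 genes are named, with values per liver for genes at an unadjusted p under 0.05 or with groups apart and for the 2 largest differences per role group. The values of Tnf and Il6 per liver were added after they were seen. Groups came from the titles, which call the livers biological replicates, and 3 and 4 arrays limit the precision. Alternatives were no filter, quantile normalization, cyclic loess, a trended and robust variance, the replicate number as a block and leaving out each array.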

Additional observations from a re-analysis of the deposited data

Results flagged for a closer look

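In the BMJ + DIO group a single liver lay far from the other 3 for 9 genes, out of 39 genes with any spread there, by the gap to the nearest liver as a share of the group's range, set against Dixon's limit. Chance alone gives about 1 in 20 for independent values without repeats. Here the values repeat, and the same limit was passed by 26.3% of the 18783 tested IDs with any spread in BMJ + DIO, against 6 of the 34 tested genes of the list (17.6%), so the number of such genes does not exceed the background. BMJ + DIO replicate 4 was the high liver for 6 of them, with ratios of 0.881 for Cd68, 0.855 for Ptprc, 0.901 for Clec4f, 0.991 for Tlr4, 1 for Nlrp3 and 0.941 for Icam1. BMJ + DIO replicate 3 was the high liver for Cd14 (0.881) and Trem2 (1), and the low liver for Itgax (1). In the 3 genes with a ratio of 1 the other 3 livers held exactly the same value. Cd68, Clec4f and Ptprc are among the 12 tested macrophage and Kupffer cell markers, 10 of which were highest of all 7 livers in BMJ + DIO replicate 4. Cd68 and Clec4f belong to those 10, while Ptprc was highest in DIO replicate 1. The group of 3 DIO livers was not examined in this way.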

How the results depend on the processing

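At the adjusted p of 0.05 (limma), 0 of the 34 genes passed under any of the 12 alternatives. Over all IDs the count was 0 throughout except for 1 ID after cyclic loess. The count of genes at an unadjusted p under 0.05, 1 with all arrays, was 3 after quantile normalization (Ccl2, C1qa and Cd74; 8.82% of all IDs, 1769, did so), 2 after cyclic loess (C1qa and Cd74; 8.98% of all IDs, 1801) and 0 to 6 without 1 array. The 0 came without BMJ + DIO replicate 3 (2.76% of all IDs) or 4 (3% of all IDs), and the 6 without DIO replicate 1 (29.0% of all IDs). Without DIO replicate 3 it was 2 (Ccl2 and Spp1), against 3.25% of all IDs. With the replicate block it stayed at 1, Ccl2, against 2.24% of all IDs. The count over all IDs, 1285, was 1942 with no filter (more IDs tested), 449 with the replicate block and 550 (without DIO replicate 2) to 5823 (without DIO replicate 1) without 1 array. Across the tested IDs, deviations of same-numbered livers from their group means had correlations of -0.36, -0.09 and -0.30. Array-wide shifts enter these correlations, so they cannot show whether same-numbered livers were handled together. The titles name no pairs, and none were taken in the main fit. Of 408 differences (34 genes under 12 alternatives), 42 had the other sign, 13 of them without DIO replicate 3. Of these, 1 passed an unadjusted p of 0.05: Spp1, at -0.44 without DIO replicate 3 and up to 0.56 without 1 other array (DIO replicate 2). The cause of these changes was not tested apart from the filter. Signal over background was not examined here.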
